A study of Homo sapiens with 17 samples.

Results

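The YAP/TEAD genes were followed across the conditions of a fibroblast study in which mRNA levels (RNA-Seq) and ribosome occupancy (Ribo-Seq, the sequencing of mRNA fragments protected by ribosomes) were measured side by side. The set was chosen by name: the coactivators YAP1 and WWTR1, the DNA-binding partner TEAD1, the pathway regulators LATS2, AMOTL1 and AMOTL2, and the target genes CTGF, CYR61 and ANKRD1. Of the 10 genes named, 9 were among the 9699 genes of the table. TEAD3 was not analysed here.

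In the Hippo pathway, a cascade of kinases ends in LATS1 and LATS2, which phosphorylate the coactivators YAP1 and TAZ (the protein of WWTR1) and keep them out of the nucleus. When the kinases are quiet, YAP1 and TAZ enter the nucleus and bind TEAD factors, which carry them to DNA. Cells use the pathway to read out density, shape, stiffness of the surroundings and serum factors. CTGF and CYR61, which encode secreted matrix-associated proteins of the CCN family (now also named CCN2 and CCN1), and ANKRD1, an ankyrin-repeat protein first known from muscle, are widely used as readouts of YAP1 and TAZ. LATS2 and AMOTL2 are both brakes on the pathway and targets of it.

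The cells were BJ, human primary fibroblasts immortalized with hTERT, and all groups share this background. C cells proliferated under normal conditions. Q cells were made quiescent by serum depletion. The cells labelled preS and S carried a tamoxifen-inducible RASG12V, an activated oncogene, and were exposed to 4-OHT-Tamoxifen, preS for 5 days and S for 14. Tr cells were transformed by retroviral RASG12V on top of stable knockdowns, that of p16INK4A among them, and SV40 small T. The table held 6 columns for each assay. C12, Q and preS came from sequencer run 1, and C3, S and Tr from run 2, so Q and preS were compared with C12 and S and Tr with C3. Q and preS therefore share a control, and so do S and Tr. C12 and Q in both assays and preS in RNA-Seq each stand for 2 labelled samples by 1 value. No column therefore had a replicate beside it, no spread could be computed, no test was possible and no p-value is given. A gene was called changed in a comparison when its level differed by 2-fold or more, a log2 change of 1. Levels are FPKM, read numbers scaled to the length of the mRNA and the size of the library. Values of 1 FPKM or less are listed as 1, the floor of the table. Read counts behind single values are unknown, and so is the counting error.

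For the Ribo-Seq libraries titled S and C3, the condition label in the submission contradicts the title, each carrying the other's condition. The titles, which the table's column names match, were followed. MKI67, a proliferation marker, was at 1 FPKM in the S column of both assays against 44.0 FPKM of RNA and 43.0 FPKM of Ribo-Seq in C3. CDKN1A, the cell-cycle inhibitor p21, stood at 814 FPKM of RNA and 548 FPKM of Ribo-Seq in S against 172 and 223 in C3. CDKN2A, the gene of p16INK4A and of a second protein, was not lower in the RNA of the library labelled Tr (12.6 FPKM against 6.75 in C3), and its Ribo-Seq level was 5.51 against 8.92. HRAS, one of the RAS genes, lay between 1254 and 2415 FPKM of RNA in C12, Q, preS, C3 and S and at 312 in Tr, so its level did not separate the RAS-induced columns from those labelled proliferating or quiescent. Which RAS gene the constructs carry is not given in the labels. All 10 fibroblast markers looked up were present. VIM (vimentin) was at 2956 to 4881 FPKM of RNA, and COL1A1, a collagen chain, ranged from 51.6 in S to 1328 in C3. Of the 11 epithelial, endothelial and leukocyte markers, only KRT8, KRT18, KRT19 and CD14 had rows. The epithelial markers EPCAM and CDH1 and all 3 endothelial ones had none. KRT18 was present in every column, at 84.5 to 257 FPKM of RNA and 250 to 667 FPKM of Ribo-Seq. In S its RNA, at 126 FPKM, was above that of COL1A1. KRT8 lay at 4.84 to 18.8 FPKM of RNA and CD14 at 1 to 1.67. The keratin KRT19 differed between the proliferating columns, 1 FPKM of RNA in C12 and 39.8 in C3. Fibroblast markers differed too. In C12 and C3, RNA was 371 and 1328 FPKM for COL1A1, 384 and 1611 for COL1A2, and 55.9 and 214 for COL3A1. It was 27.6 and 164 for DCN, and 33.6 and 155 for LUM. THY1, PDGFRB and S100A4 were also higher in C3, by less. VIM (4334 and 2956) and FN1 (915 and 722) were lower. The part of these differences in the results below was not tested.

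TEAD factors bind the 6-base element GGAATG, and the stretches that hold it near the starts of these genes are shown because the members differ in how many copies they hold. In RefSeq windows from 250 bases before to 50 bases after each gene start (build GRCh38.p14), GGAATG or its reverse complement CATTCC was searched on both strands. Windows matched 7 of the 9 genes. CYR61 and TEAD1 did not match. The element occurred 3 times for CTGF, 2 times for ANKRD1 and 1 time each for YAP1, LATS2 and 1 of the 2 starts of AMOTL2. It was not in the windows of WWTR1 and AMOTL1. Of all 35116 windows, 14.0% held 1 or more copies, 1.37% held 2 or more and 0.128% held 3 or more. A match is a description of the letters and no evidence of binding. The 30 bases around each match are given below along the strand of the gene, with the element in capitals.

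CTGF, chr6:131951455-131951484, minus strand, elements beginning 104 and 95 bases before the start: ggtggggaGGAATGcgaGGAATGtccctgt
CTGF, chr6:131951524-131951553, minus strand, 169 bases before the start: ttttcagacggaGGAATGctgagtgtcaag
ANKRD1, chr10:90921198-90921227, minus strand, 128 bases before the start: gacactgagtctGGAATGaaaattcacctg
ANKRD1, chr10:90921290-90921319, minus strand, 220 bases before the start: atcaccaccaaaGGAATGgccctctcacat
AMOTL2, chr3:134374499-134374528, minus strand, 69 bases before the start: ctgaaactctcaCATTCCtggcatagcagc
YAP1, chr11:102110273-102110302, plus strand, 162 bases before the start: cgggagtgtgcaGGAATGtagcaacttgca
LATS2, chr13:21061560-21061589, minus strand, base 10 of the transcribed part: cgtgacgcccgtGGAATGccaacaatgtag

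The mRNAs past 2-fold in the higher direction were WWTR1 in Q and ANKRD1 in S. The plot of levels by condition shows all 9 genes on 1 scale.

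YAP1 (transcript ENST00000282441), the principal coactivator, varied little. Its RNA stood at 62.0 FPKM in C12, 53.5 in Q, 61.4 in preS, 66.8 in C3, 43.8 in S and 55.5 in Tr. Ribo-Seq gave 75.2, 90.5, 63.1, 109, 69.2 and 76.6 FPKM in the same order. The highest RNA level was 1.53-fold above the lowest, with S the lowest column, and no comparison of YAP1 passed 2-fold in either assay.

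WWTR1 (ENST00000465804), which encodes TAZ, moved more than its paralog. RNA was at 18.8 FPKM in C12, 47.2 in Q, 28.0 in preS, 24.2 in C3, 12.7 in S and 28.9 in Tr. Ribo-Seq levels in the same order were 41.8, 93.2, 54.7, 43.7, 22.8 and 42.6 FPKM. Q was the highest column and S the lowest in both assays. Set against YAP1 in the same column, the RNA of WWTR1 was 0.303 of that of YAP1 in C12, 0.881 in Q and 0.456 in preS. In run 2 this ratio of RNA levels was 0.362 in C3, 0.290 in S and 0.522 in Tr. In Ribo-Seq the quiescent ratio was 1.03, the only column where WWTR1 reached YAP1.

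TEAD1 (ENST00000361905), the member that binds DNA, had its highest level in C12 in both assays and its lowest in S. Its RNA was 66.7 FPKM in C12, 47.5 in Q, 43.8 in preS, 48.5 in C3, 31.6 in S and 37.9 in Tr. Ribo-Seq stood at 53.6, 34.5, 44.2, 31.6, 25.9 and 29.4 FPKM in that order. No comparison with the control of the same run passed 2-fold.

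LATS2 (ENST00000382592), the kinase that restrains YAP1 and TAZ, was the least occupied by ribosomes for its RNA level. RNA stood at 16.5 FPKM in C12, 13.8 in Q, 11.7 in preS, 17.9 in C3, 15.3 in S and 17.3 in Tr. Its Ribo-Seq levels were 6.68, 7.70, 6.25, 5.61, 5.00 and 5.16 FPKM. Neither assay passed 2-fold in any comparison.

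AMOTL1 (ENST00000433060) and AMOTL2 (ENST00000514516) encode angiomotin-like scaffolds that hold YAP1 and TAZ at cell junctions and in the cytoplasm. AMOTL1 RNA was 21.1 FPKM in C12, 30.6 in Q, 17.2 in preS, 26.2 in C3, 12.1 in S and 17.2 in Tr, and its Ribo-Seq levels were 32.1, 61.7, 36.4, 38.6, 17.1 and 27.3. AMOTL2 RNA was 55.3 FPKM in C12, 30.4 in Q, 23.4 in preS, 61.0 in C3, 22.7 in S and 43.2 in Tr, with Ribo-Seq at 103, 79.9, 37.0, 80.8, 27.5 and 62.1. The paralogs parted in quiescence, where AMOTL1 was at its highest and AMOTL2 was below its control. The RNA of AMOTL2 exceeded that of AMOTL1 by 2.62-fold in C12 and was level with it in Q, at a ratio of 0.994.

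CYR61 (ENST00000451137) was the most abundant member, above 94.5% or more of all genes in every RNA column. Its RNA was 387 FPKM in C12, 163 in Q, 157 in preS, 349 in C3, 137 in S and 229 in Tr. The Ribo-Seq levels were 1025, 557, 410.7, 715, 557 and 497 FPKM. Both proliferating columns were above every other column in both assays.

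CTGF (ENST00000367976), its paralog, did not follow that order. RNA was 60.7 FPKM in C12, 42.7 in Q, 41.6 in preS, 174 in C3, 77.8 in S and 86.1 in Tr. Ribo-Seq was 217, 206, 144, 495, 444 and 182 FPKM. The proliferating column of run 2 lay 2.88-fold above that of run 1 in RNA and 2.28-fold above it in Ribo-Seq. This gap between untreated columns was wider than any RNA difference of CTGF from the control of its own run.

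ANKRD1 (ENST00000371697) had the lowest median RNA level of the members, 2.98 FPKM, and the widest range over the columns in both assays. Its RNA was 4.38 FPKM in C12, at the floor of 1 in Q, 6.20 in preS, 1.58 in C3, 13.5 in S and at the floor in Tr. Ribo-Seq stood at 10.1, 1, 8.20, 3.79, 38.6 and 1.33 FPKM. S was the highest column in both assays, and Q and Tr were at or near the floor in both. The proliferating columns differed by 2.77-fold in RNA and 2.66-fold in Ribo-Seq, with C12 the higher, the reverse of CTGF.

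In quiescence, TAZ mRNA was higher while the target genes CYR61 and ANKRD1 were lower. Against C12, WWTR1 was 2.51-fold higher in RNA (log2 1.33) and 2.23-fold higher in Ribo-Seq (log2 1.16), though against C3 its RNA was just short of the threshold at log2 0.96. CYR61 was 2.37-fold lower in RNA, and 1.84-fold lower in Ribo-Seq, which did not pass. ANKRD1 was at least 4.38-fold lower in RNA and at least 10.1-fold lower in Ribo-Seq, bounds set by the floor. Against C3, the control of the other run, the bounds for ANKRD1 were log2 -0.66 in RNA and -1.92 in Ribo-Seq. CTGF differed less, with log2 changes of -0.51 in RNA and -0.08 in Ribo-Seq, but against C3 it was at -2.03 and -1.26. AMOTL1 stood at log2 0.54 in RNA and 0.94 in Ribo-Seq, while AMOTL2 stood at -0.86 and -0.37. In all, 3 of 9 members passed 2-fold in RNA, where 6.39% of all genes did, and 2 of 9 in Ribo-Seq, where 17.1% did. The median log2 change of the members was -0.49 in RNA and -0.08 in Ribo-Seq, beside 0.00 and -0.05 over all genes.

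After 5 days of RASG12V, CYR61 and AMOTL2 were lower in both assays and no other member passed 2-fold. CYR61 was 2.47-fold lower in RNA (log2 -1.31) and 2.50-fold lower in Ribo-Seq (log2 -1.32, but -0.80 against C3). AMOTL2 was 2.36-fold lower in RNA (log2 -1.24) and 2.79-fold lower in Ribo-Seq (log2 -1.48). CTGF had log2 changes of -0.54 and -0.59, against C3 of -2.07 and -1.78, and WWTR1 of 0.58 and 0.39. YAP1 RNA was within 1.01-fold of its control. ANKRD1 was at log2 0.50 in RNA and -0.30 in Ribo-Seq against C12, but at 1.97 and 1.11 against C3. With C3 as control, 4 of 9 members were past 2-fold in RNA, where 11.7% of all genes were. The 2 of 9 members past 2-fold in RNA compare with 3.77% of all genes, and the 2 of 9 in Ribo-Seq with 17.4%. Median log2 changes of the members were -0.49 in RNA and -0.28 in Ribo-Seq. Over all genes they were 0.02 and -0.10.

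After 14 days, in senescent cells, 4 members were lower in RNA and ANKRD1 was higher. CTGF was 2.24-fold lower (log2 -1.16), CYR61 2.55-fold (log2 -1.35), AMOTL2 2.68-fold (log2 -1.42) and AMOTL1 2.16-fold (log2 -1.11). ANKRD1 RNA was 8.54-fold higher (log2 3.09), and its Ribo-Seq level 10.2-fold higher (log2 3.35). In Ribo-Seq, AMOTL2 (2.94-fold lower) and AMOTL1 (2.25-fold lower) passed, whereas CTGF and CYR61 were only 1.12-fold and 1.28-fold lower. WWTR1 came close, 1.90-fold lower in RNA and 1.91-fold lower in Ribo-Seq. The 5 of 9 members past 2-fold in RNA compare with 20.1% of all genes, and the 3 of 9 in Ribo-Seq with 27.6%, which is near that background. The members' median log2 change in RNA was -0.93, against -0.00 over all genes, and in Ribo-Seq -0.36 against -0.10. The lower RNA of CTGF rests on the control: against C12 in place of C3, CTGF RNA in S was higher, at log2 0.36, and its Ribo-Seq level higher at log2 1.03. AMOTL1 was then short of 2-fold, at log2 -0.80 in RNA and -0.91 in Ribo-Seq, and TEAD1 past it, at -1.08 and -1.05. ANKRD1 kept its direction against C12, at log2 1.62 in RNA and 1.93 in Ribo-Seq. If the Ribo-Seq columns with contradictory labels were exchanged, the Ribo-Seq changes in S would turn, to log2 -3.35 for ANKRD1 and 1.56 for AMOTL2. The RNA changes do not use these columns.

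In the library labelled Tr, CTGF was lower in both assays and ANKRD1 in Ribo-Seq, and no other member passed 2-fold. CTGF was 2.03-fold lower in RNA (log2 -1.02) and 2.72-fold lower in Ribo-Seq (log2 -1.44). ANKRD1 was 2.85-fold lower in Ribo-Seq, and in RNA at least 1.58-fold lower, a bound set by the floor. CYR61 had log2 changes of -0.61 in RNA and -0.52 in Ribo-Seq. LATS2, at -0.05 and -0.12, and WWTR1, at 0.26 and -0.04, were closest to their controls. Here 1 of 9 members passed 2-fold in RNA, where 10.2% of all genes did, and 2 of 9 in Ribo-Seq, where 12.7% did, both near the background. These calls again depended on the control. Against C12, the RNA of CTGF was higher at log2 0.50 and the Ribo-Seq level of CTGF was at log2 -0.26. Against C12, CYR61 passed 2-fold in Ribo-Seq, at log2 -1.04, and ANKRD1 was at -2.92 in Ribo-Seq and, as a bound, at -2.13 in RNA.

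Senescent and transformed cells both had activated RAS and were sequenced in the same run, so they were also set against each other directly. ANKRD1 was at least 13.5-fold higher in S than in the library labelled Tr in RNA, and 29.0-fold higher in Ribo-Seq. CTGF was nearly level in RNA (log2 -0.15) and 2.44-fold higher in S in Ribo-Seq. WWTR1 RNA was 2.28-fold lower in S, and AMOTL2 was 2.26-fold lower in Ribo-Seq. These are 2 of 9 members in RNA, where 23.2% of all genes passed 2-fold, and 3 of 9 in Ribo-Seq, where 30% did, so the counts do not stand out from the background.

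The proliferating columns themselves differed for CTGF and ANKRD1 and for no other member. C3 was above C12 for CTGF (log2 1.52 in RNA, 1.19 in Ribo-Seq) and below it for ANKRD1 (log2 -1.47 and -1.41). That is 2 of 9 members in each assay, where 7.85% of all genes passed 2-fold in RNA and 18.6% in Ribo-Seq. In TE none of 9 did, where 8.51% of genes did. In RNA, 2.57% of all genes differed by as much as CTGF between these columns. The sequencer run, the culture and, in RNA-Seq, the read layout cannot be told apart here. The paper marks the RNA-Seq samples C3, S and Tr as not paired-end, unlike those of run 1. For the other 7 members, log2 differences in RNA were between -0.46 (TEAD1) and 0.37 (WWTR1).

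**Figure D1:**
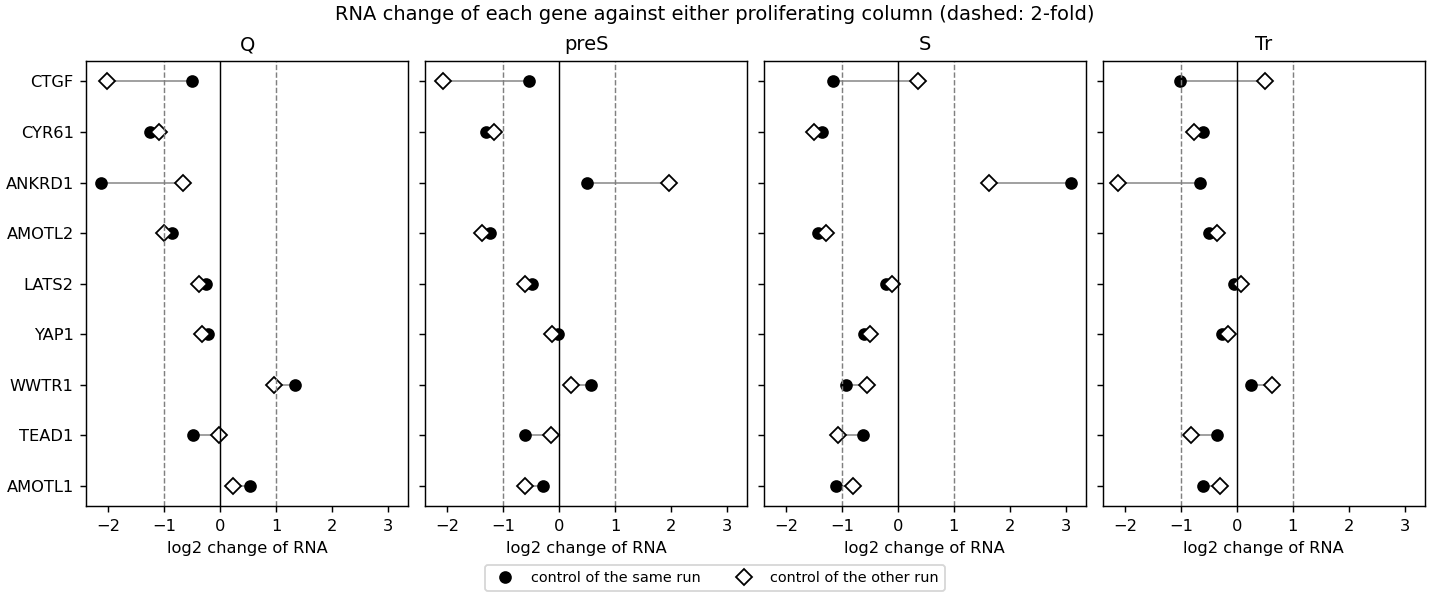
Log2 change of RNA for each gene in Q, preS, S and Tr, against the proliferating column of the same run (filled circles) and of the other run (open diamonds). Dashed lines mark 2-fold, and the ANKRD1 values in Q and Tr are bounds. For CTGF the symbols lie on opposite sides of 0 in S (log2 -1.16 and 0.36) and Tr (-1.02 and 0.50), whereas those of CYR61 and AMOTL2 lie close together.

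Translation efficiency (TE), the ratio of Ribo-Seq to RNA-Seq level, differed widely between members. CTGF and CYR61 were well occupied, with ratios of 2.11 to 5.70 and 2.05 to 4.06, while the median gene had 1.20 to 1.35. LATS2 was at 0.299 to 0.559, and TEAD1 at 0.651 to 1.01. In C3, only 3.43% of genes had a lower TE than LATS2, and in S 98.1% had a lower TE than CTGF. RNA-Seq counted reads on the whole transcript and Ribo-Seq on the coding sequence, so a ratio compares genes less directly than it compares columns.

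Changes in TE stayed within 2-fold in most comparisons, and the CCN genes in senescence were at the threshold. In C3 and S, the ratio of CTGF was 2.84 and 5.70, a 2.01-fold difference (log2 1.01), just past the threshold, and log2 0.67 against C12. CYR61 went from 2.05 to 4.06, a 1.98-fold difference (log2 0.99), just short of it. A TE change of that size or larger in either direction was seen in 8.33% of genes for CTGF and 8.93% for CYR61. Thus 1 of 9 members passed 2-fold in TE in S, where 8.55% of genes did. Against the library labelled Tr, the TE of CTGF in S was 2.70-fold higher, a size reached by 1.08% of genes, and it was the only 1 of 8 members past 2-fold, where 4.97% of genes were. In quiescence none of 8 members passed 2-fold in TE, where 7.06% of genes did, but 6 of them were on the higher side, with a median log2 change of 0.42 against -0.06 over all genes. AMOTL2 was the largest of these at log2 0.49. None of 9 members passed 2-fold after 5 days of RAS and none of 8 in Tr, where 13.2% and 2.69% of genes did. The median TE of all genes itself was at log2 -0.15 in preS against C12, where ANKRD1 had the lowest member value, -0.80. The TE of ANKRD1 is not given where a value was at the floor.

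Of the wider Hippo pathway, 21 of 28 symbols searched (older spellings included) had rows, among them kinases, scaffolds and cadherins. Past 2-fold in RNA were 2 of the 21 in each condition, both higher in Q, both lower in preS and S, and 1 each way in Tr, where 6.39%, 3.77%, 20.1% and 10.2% of all genes passed in either direction. Ribo-Seq counts were 2 higher and 1 lower in Q, 1 and 2 in preS, 0 and 3 in S, and 1 and 1 in Tr. Over all genes, 17.1%, 17.4%, 27.6% and 12.7% passed in Ribo-Seq in either direction, so these counts do not stand out. The median log2 change in RNA ran from -0.33 (S) to -0.08 (Q), where the medians of all genes ran from -0.00 to 0.08. SAV1, the scaffold of the upstream kinases, was higher in Q in both assays, 15.4 to 31.3 FPKM of RNA and 4.61 to 13.5 FPKM of Ribo-Seq. DCHS1, the protocadherin ligand of FAT4, moved in opposite directions in the RAS states. Its RNA was 7.03 FPKM in C3, 1.02 in S and 29.5 in Tr, and Ribo-Seq was 3.63, 1 and 16.7. In Q it was 2.07-fold higher in RNA and 5.28-fold higher in Ribo-Seq. FAT4, a receptor protocadherin, was 3.32-fold lower in RNA and 2.11-fold lower in Ribo-Seq in Tr. Its Ribo-Seq level was 1.81 FPKM in C12, 6.54 in C3 and 3.10 in Tr, so Tr lay above C12. Of TEAD2, TEAD4, VGLL3 and VGLL4, which are TEAD factors and cofactors, TEAD4 and VGLL3 had rows. TEAD4 RNA was 15.1 FPKM in C12, 8.86 in Q, 8.72 in preS, 9.77 in C3, 2.14 in S and 6.62 in Tr. It was 4.57-fold lower in S in RNA and 4.28-fold lower in Ribo-Seq, where its level was 6.5 FPKM in C3 and 1.52 in S. VGLL3, a cofactor that binds TEAD factors, was lower in S (3.16-fold in RNA, 4.39-fold in Ribo-Seq) and in Tr (4.73-fold and 6.60-fold). Its Ribo-Seq level was low and differed between controls, at 3.66 FPKM in C12, 11.28 in C3, 2.57 in S and 1.71 in Tr.

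A list of 17 other genes widely used as YAP and TAZ targets was measured in full, and its members went both ways. In RNA 5 were lower and 0 higher in Q, 4 lower and 0 higher in preS, 5 lower and 3 higher in S, and 5 lower and 4 higher in Tr. Ribo-Seq counts were 3 lower and 0 higher in Q, 5 and 1 in preS, 4 and 4 in S, and 3 and 2 in Tr. Over all genes, the percentages past 2-fold in RNA were 2.37% lower and 4.02% higher in Q, 2% and 1.77% in preS, 13% and 7.08% in S, and 5.33% and 4.92% in Tr. In Ribo-Seq they were 8.02% lower and 9.11% higher in Q, 10.3% and 7.13% in preS, 16.6% and 11% in S, and 7.37% and 5.28% in Tr. Median log2 changes in RNA were -0.25 in Q, -0.48 in preS, -0.57 in S and -0.46 in Tr. AXL, a receptor kinase, was 2.68-fold lower in Q in RNA and 2.01-fold lower in Ribo-Seq, and F3 (tissue factor) was 2.47-fold and 2.38-fold lower. CRIM1, a transmembrane protein that binds BMPs, was 2.38-fold lower in RNA and 2.02-fold lower in Ribo-Seq in preS, and NUAK2, a kinase of the AMPK family, was 2.70-fold and 2.01-fold lower. NUAK2 lay near the floor, at 2.02 FPKM of RNA and 1.86 FPKM of Ribo-Seq in preS against 5.45 and 3.73 in C12.

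Some of these targets were high in S, as ANKRD1 was. TGFB2, a TGF-beta ligand, had 3.50 FPKM of RNA in C12, 1 in Q, 1.15 in preS, 11.4 in S and 1 in Tr, with C3 6.51-fold below S. Its Ribo-Seq levels were 10.2, 3.03, 3.28, 6.68, 88.8 and 5.11 FPKM. Against C3, S was thus 13.3-fold higher in Ribo-Seq, and TGFB2 was lower in Q and preS, at least 3.50-fold and 3.04-fold in RNA. NT5E, the ecto-nucleotidase CD73, was 2.58-fold higher in RNA in S and 4.82-fold higher in Ribo-Seq, and in Tr 2.29-fold and 2.50-fold higher. IGFBP3, which binds insulin-like growth factors, was 16.6-fold lower in RNA in S, 6.25-fold in preS and 3.40-fold in Tr. It also differed 3.27-fold between the proliferating columns, with C3 the higher. CCDC80, a matrix protein, was 2.99-fold lower in RNA in S and 6.25-fold in Tr, and RBMS3, an RNA-binding protein, was 2.61-fold lower in S. The RNA of RBMS3 was low, at 4.28 FPKM in C3 and 1.64 in S. FJX1, a secreted homolog of the fly four-jointed protein, was 5.87-fold higher in RNA in Tr, and MYOF, a membrane-repair protein, 2.27-fold lower. FJX1 also differed between the proliferating columns, with C3 2.30-fold lower in RNA and 3.63-fold lower in Ribo-Seq. Its RNA was 62.55 FPKM in Tr and 24.57 in C12, and its Ribo-Seq level 13.55 and 12.46.

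**Figure D2:**
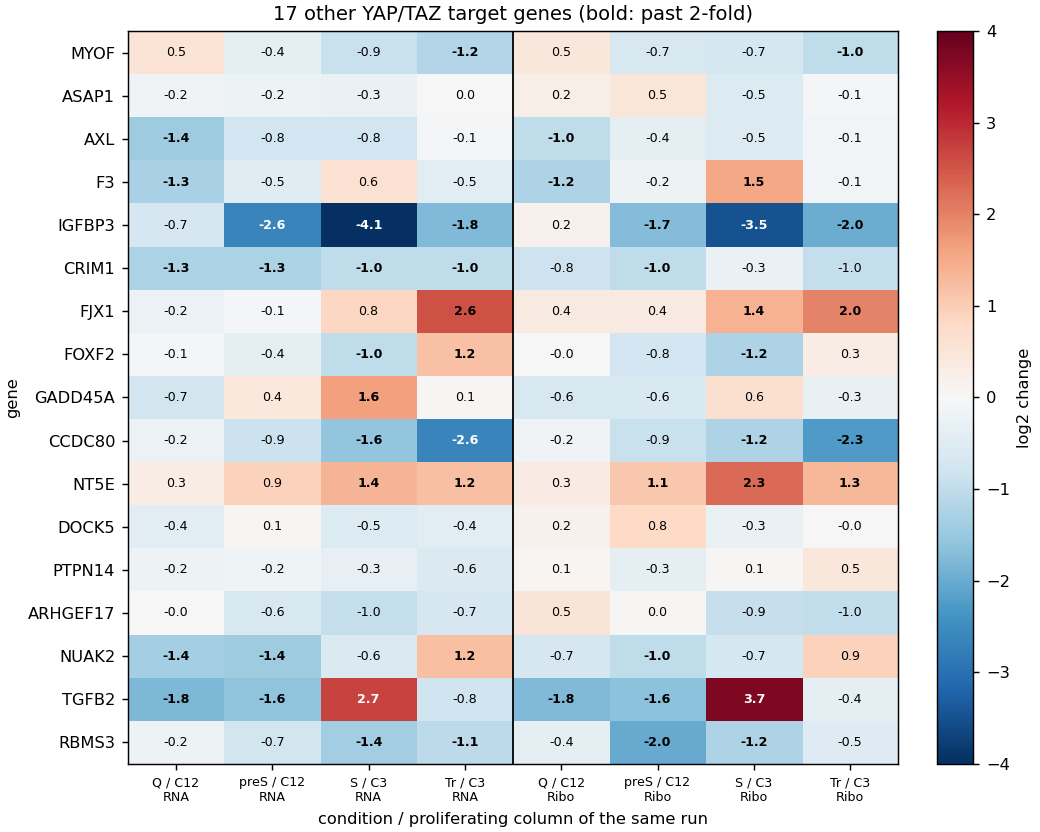
Log2 change of 17 other YAP/TAZ target genes (rows) in RNA-Seq (left 4 columns) and Ribo-Seq (right 4 columns), each condition against the proliferating column of its run, with blue for lower and red for higher and values past 2-fold in bold. The TGFB2 values in Q and Tr RNA are bounds because of the floor. TGFB2 and NT5E are red in S in both assays, and IGFBP3 is blue in S (log2 -4.06 in RNA).

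The genes with patterns most like those of the targets were found by the Euclidean distance over the 8 log2 changes, 4 conditions in 2 assays, among all genes of the table. These changes share the columns C12 and C3. Nearest to CTGF were THY1, CDH11, SDC4, FBN1 and SCD5, at distances of 0.87 to 0.98, and of the other members YAP1 ranked 237, TEAD1 346 and CYR61 506. Closest to CYR61 came CRIM1, PKN3, MBOAT1, FSTL1 and EZR (0.75 to 1.14), with AMOTL2 at rank 18, TEAD1 at rank 85, CTGF at rank 151 and CRIM1 itself among the 17 targets. For ANKRD1 the nearest were BDNF, TGFB2, PLS1 and IL20RB. Their distances were 3.04 to 3.55, and since this measure grows with the size of the changes, they are not comparable with those for CTGF and CYR61. The nearest other member was TEAD1, at rank 4138. The ANKRD1 changes in Q in both assays and in Tr in RNA are bounds. They were entered as plain values, so the distances and ranks for ANKRD1 rest partly on the floor.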

How the data were processed

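RNA-Seq and Ribo-Seq of BJ fibroblasts were taken from the table the authors deposited, 12 columns of FPKM for 9699 genes. The authors aligned reads of 50 nucleotides with Bowtie (version not given in the sources used here) to 1 protein-coding transcript per gene from Ensembl release 65, kept uniquely mapped reads, counted the whole transcript for RNA-Seq and the coding sequence for Ribo-Seq, set values below 1 FPKM to 1, and kept transcripts with at least 40 reads in both assays in some condition. The labels name the genome build hg19. How the values of 2 samples were combined into 1 column is not stated. The deposited FPKM values hold no counts, so depth was not recovered.

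Log2 changes were taken on the deposited FPKM with no pseudocount and no further filter, in Python 3.11.15 with pandas 2.3.3, for all genes. TE was the log2 ratio of Ribo-Seq to RNA-Seq FPKM, left out where a value was at the floor. The arithmetic of the calls was checked on simulated data with planted changes, which does not measure how often a 2-fold call on these columns is in error. The members and gene lists were chosen with earlier results of these data known. The genes named besides the members were those of a list past 2-fold the same way in both assays, at most the 5 largest per list and comparison, a few of them left to the plot, and the 5 nearest patterns. A gene of the label check and 1 of the nearest patterns are not reported here. Genes used to check the labels were given as levels. KRT19 and the fibroblast markers given for C12 and C3 were singled out after their values were seen. Alternatives were another scaling, pseudocount, filter, control column, threshold and the exchange of the Ribo-Seq columns with contradictory labels. Promoter sequences are from RefSeq.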

Additional observations from a re-analysis of the deposited data

Results flagged for a closer look

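ANKRD1 went past 2-fold in opposite directions in different conditions, and the difference between conditions was not tested because each condition had 1 column. In RNA its log2 change was 3.09 in S against C3 and -2.13 in Q against C12, the latter a bound. In Ribo-Seq it was 3.35 in S, -3.33 in Q, also a bound, and -1.51 in Tr against C3. The level in S was 13.5 FPKM of RNA and 38.6 FPKM of Ribo-Seq, and the levels in Q were at the floor. The controls were low as well, at 4.38 FPKM of RNA in C12 and 1.58 in C3. With a pseudocount of 5 FPKM, the log2 change was -0.64 in RNA in Q and -0.47 in Ribo-Seq in Tr, short of 2-fold. It was then -1.33 in Ribo-Seq in Q, and 1.49 in RNA and 2.31 in Ribo-Seq in S. Against C3, the RNA bound in Q was -0.66.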

How the results depend on the processing

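No paired analysis was possible because each condition had 1 column per assay and run, with no replicate number. For the same reason leaving out replicates and a limma fit, with or without a replicate block, were not run. Depth behind single values is unknown, and levels near 1 FPKM are limited by the floor. The sequencer run, the culture and the RNA-Seq read layout of the proliferating columns cannot be told apart. The filter at 5 FPKM kept all 9 members and changed no level, so their counts past 2-fold could not move.

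Counts of the 9 members past 2-fold stayed within 1.5 times under 80 of 108 combinations of comparison and alternative, but a like count could hold different genes. Of these 80, 15 came from the filter at 5 FPKM, under which the counts could not move. With the other control the RNA count in Q stayed at 3, but as CTGF, CYR61 and AMOTL2, all lower, with WWTR1 and ANKRD1 short of 2-fold. In Tr the RNA count stayed at 1, but as ANKRD1 (a bound) in place of CTGF. In TE in S against C3 the count of 1 became 2 after centring on the median of all genes, where 8.38% of genes passed. It was 0 with a pseudocount of 1 or 5 FPKM and with the other control, where 6.18%, 3.61% and 17.3% did. With a pseudocount of 5 the count in Tr was 0 in RNA and 1 in Ribo-Seq, where 4.11% and 5.33% of genes passed. In S against Tr it was then 1 in RNA, where 10% did. With the other control the RNA count in preS was 4, where 11.7% of genes passed. At 1.5-fold the counts were 5 in Ribo-Seq in Q, where 40.8% of all genes passed, and 1 in TE in preS, where 36% did. In S they were 8 in RNA, 5 in Ribo-Seq and 2 in TE, where 40.9%, 49.7% and 30.7% of genes passed. The count in RNA in Tr was 4, where 24.6% did. In S against Tr the counts were 4, 5 and 2 in RNA, Ribo-Seq and TE, where 45%, 52.4% and 23.7% did. With a threshold set by the local SD over genes of like level the count was 1 in Ribo-Seq in Q, where 7.53% of genes passed. In S the counts were then 2 in RNA, 1 in Ribo-Seq and 0 in TE, where 7.65%, 7.91% and 7.29% did. In Tr they were 0 in RNA and 1 in Ribo-Seq, where 6.09% and 6.39% did. For S against Tr they were 1 in RNA and 1 in Ribo-Seq, where 7.89% and 7.44% did.

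With the control of the other run, values past 2-fold before or after the exchange of controls turned sign for ANKRD1 in Ribo-Seq in preS (log2 1.11), for CTGF in S (0.36 in RNA, 1.03 in Ribo-Seq) and for CTGF RNA in Tr (0.50). Exchanging the S and C3 Ribo-Seq columns turned, in S against C3, the Ribo-Seq changes of ANKRD1 (-3.35), AMOTL2 (1.56) and AMOTL1 (1.17) and the TE changes of ANKRD1 (-6.44), AMOTL2 (2.98), YAP1 (1.26), WWTR1 (1.86) and AMOTL1 (2.28). It also turned AMOTL2 Ribo-Seq in Tr (1.18) and, in S against Tr, AMOTL2 in Ribo-Seq (0.38) and TE (1.31) and AMOTL1 in TE (1.01). TE counts then became 7 in S, 2 in Tr and 5 in S against Tr, where 45.8%, 24.5% and 20.7% of all genes passed. These turns follow from the exchange itself, which would put 43.0 FPKM of MKI67 in Ribo-Seq beside 1 FPKM in RNA in S. The cause of the others was not tested. Of the 554 single values, 16 came past and 15 fell short of 2-fold. The sign was the other in 60, of which 44 were past 2-fold under neither setting. Of the 16 that turned sign and were past 2-fold under at least 1 setting, 12 came from the exchange.

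Centring moved the share of higher genes among all genes past 2-fold in TE from 43.8% to 54.5% in Q, from 37.1% to 53.5% in preS and from 33.5% to 46.2% in Tr.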
